A study of Mus musculus with 10 samples.

Results

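Genes of 48 secreted matrix glycoproteins, the matricellular and elastic-fibre group, were followed in long bones of aged and young mice. They were chosen by name, as the rows of the count table that carry one of 48 gene symbols, out of 38962 genes in the table. Each symbol matched 1 row, and all 48 passed the filter on low counts. Femoral RNA of 5 aged mice (22 months) and 5 young mice (2 months), all male and of the C57BL/6J strain, was sequenced as 1 library for each animal. Marrow was flushed out and the cortical bone pulverized, and the labels give no genotype or treatment besides strain and age. The aged mice came from the National Institute of Aging colony and the young mice from the Jackson Laboratory, so age and supplier cannot be told apart.

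Glycoproteins of this group are laid down between the collagen fibrils and the cells of connective tissue. Matricellular proteins such as tenascins, thrombospondins and periostin bind both collagen and integrin receptors, and are produced mainly where tissue grows, bears load or heals. Elastic fibres are built on microfibrils of fibrillin, onto which fibulins, microfibril-associated proteins and EMILINs guide elastin. Latent TGF-beta binding proteins sit on the same microfibrils and hold the growth factor in store. In bone many of these genes are expressed by the periosteum, by osteoblasts and their precursors, and by tendon and ligament insertions.

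The libraries held 31788232 to 45075335 counts in aged and 33447009 to 40395050 counts in young mice. Levels are given as CPM, the counts of a gene per 1000000 counts of the library with libraries scaled by edgeR's TMM factors (trimmed mean of M values). Age was tested by edgeR's quasi-likelihood test over 22088 genes with Benjamini-Hochberg adjustment across that whole set, and a gene is called lower or higher at an adjusted p of at most 0.05. Fold changes are aged over young. Markers of bone were present in every library. The sum of 9 osteoblast markers was 401 to 1438 CPM in aged and 1164 to 2525 CPM in young femurs, and that of 6 osteocyte markers 163 to 594 CPM in aged and 354 to 452 CPM in young femurs. Skeletal muscle RNA was present too, as 13 muscle markers took 3.32% to 7.82% of the counts in aged and 2.41% to 5.58% in young libraries. The library of aged mouse 4 stood apart in this gene group, with the lowest level among the aged mice for 13 of the 21 genes called lower.

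In aged femurs 21 of the 48 genes were lower and 2 higher than in young femurs, while 25 did not pass. That is 43.8% lower and 4.17% higher, against 3.61% lower, 3.68% higher and 7.29% in either direction among all 22088 genes tested. The 48 genes were chosen with earlier results of these data known. Their distance from all genes, here and below, is therefore a description and no test. Where a change of at least 1.5-fold was also asked, 20 were lower and 1 was higher, against 2.72% and 2.64% of all genes. The median log2 fold change was -0.47 over the 48 genes and 0.0077 over all genes tested. All 5 aged mice lay below all 5 young mice for 17 of the 48 genes, against 4.12% of all genes, and above them for 1, Efemp1, against 3.68%. Of the 48 genes, 14 (29.2%) were called lower with a fall of at least 2-fold, against 1.31% of all genes tested. Together the 48 genes took 0.215% to 0.412% of all counts in aged libraries, and 0.433% to 0.551% in young libraries. The groups did not overlap in this share, nor with Gm26917 left out of the totals, a gene that took 16.1% to 31.0% of the counts in aged and 14.5% to 24.0% in young libraries. Their summed level was 3017 ± 461 CPM in aged and 4699 ± 333 CPM in young femurs (SD, n = 5 each), and Postn made up 24.7% of the difference, Fn1 17.1% and Tnc, which did not pass the test on its own, 16.4%. Scaling by total counts in place of TMM shifted the median of all genes to -0.16 and that of the 48 genes to -0.63 on the log2 scale. It called 917 genes lower and 285 higher, against 798 and 812 with TMM, and 22 of the 48 genes lower and 0 higher. Because each library is RNA of all the cells left in the bone, fewer cells of a type and less RNA per cell cannot be told apart for any of these genes.

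**Figure D1:**
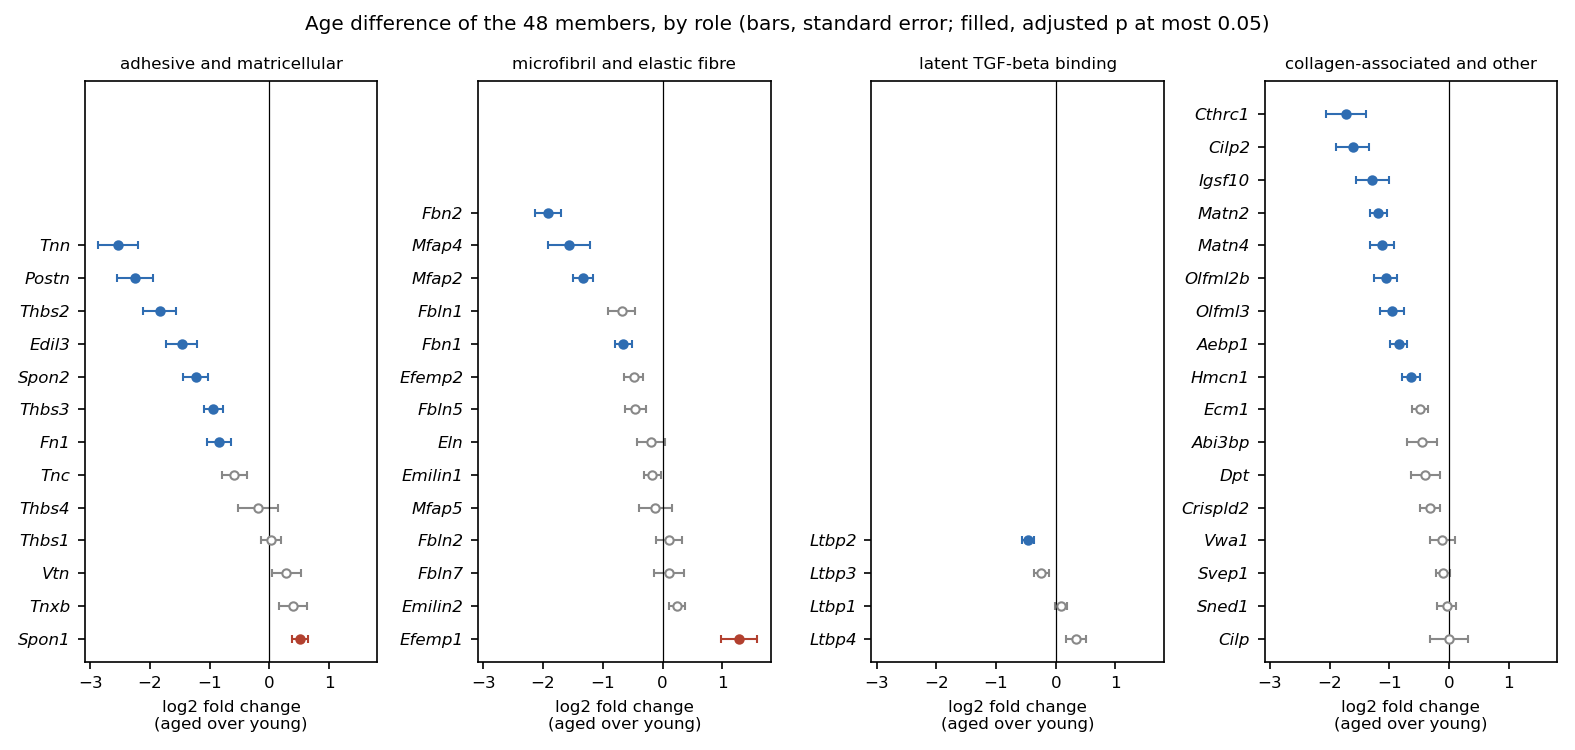
Log2 fold change, aged over young, of the 48 genes in 4 panels by role, with genes down the page and bars of 1 standard error. Filled points passed the test (21 lower and 2 higher) and open points did not.

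Promoter windows from RefSeq of Tnn, Postn and Thbs2, 3 of the 4 genes with the largest falls, and of Efemp1, which rose, are printed to show the DNA at the start of genes that moved together and of one that moved the other way. A window runs from 250 bases before to 50 bases after the start site, 5′ to 3′ on the gene's strand, in build GRCm38.p6. They lie at chr1:160153526-160153825 on the minus strand for Tnn, chr3:54360857-54361156 on the plus strand for Postn, chr17:14694213-14694512 on the minus strand for Thbs2 and chr11:28852955-28853254 on the plus strand for Efemp1. Capitals mark matches, on either strand, of TATAAA (the TATA box), TGTGGT (a RUNX motif) and GGAATG (a TEAD motif), 3 letter strings that do not overlap one another here.
Tnn: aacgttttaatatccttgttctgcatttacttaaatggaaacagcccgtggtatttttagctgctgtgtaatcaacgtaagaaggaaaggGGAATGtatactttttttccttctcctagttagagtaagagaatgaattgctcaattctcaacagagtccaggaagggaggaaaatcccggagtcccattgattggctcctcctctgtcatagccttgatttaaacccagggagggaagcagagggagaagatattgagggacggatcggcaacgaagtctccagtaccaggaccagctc
Postn: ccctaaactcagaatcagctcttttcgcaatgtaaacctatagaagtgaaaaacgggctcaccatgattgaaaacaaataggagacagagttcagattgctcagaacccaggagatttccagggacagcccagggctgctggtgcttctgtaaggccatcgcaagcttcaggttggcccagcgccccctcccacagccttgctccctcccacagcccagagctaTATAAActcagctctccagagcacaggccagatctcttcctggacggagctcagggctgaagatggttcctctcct
Thbs2: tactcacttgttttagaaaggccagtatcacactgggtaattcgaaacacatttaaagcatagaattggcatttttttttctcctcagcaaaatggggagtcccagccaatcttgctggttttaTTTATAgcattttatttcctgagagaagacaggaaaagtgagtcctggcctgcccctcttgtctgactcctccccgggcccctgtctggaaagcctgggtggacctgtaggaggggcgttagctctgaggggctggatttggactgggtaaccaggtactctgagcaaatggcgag
Efemp1: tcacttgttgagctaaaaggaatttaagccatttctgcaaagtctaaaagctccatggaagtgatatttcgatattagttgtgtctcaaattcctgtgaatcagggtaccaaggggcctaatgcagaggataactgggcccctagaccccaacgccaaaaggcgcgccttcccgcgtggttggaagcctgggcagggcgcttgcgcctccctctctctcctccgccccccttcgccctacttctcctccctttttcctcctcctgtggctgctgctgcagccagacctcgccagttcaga

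Postn had TATAAA with its first base 26 bases before the start site, Tnn had GGAATG 160 bases before it, Thbs2 had the reverse complement of TATAAA 126 bases before it, and Efemp1 had none of the 3 strings. Of the 48 genes, 35 have a window. TATAAA was in 7 of these 35 genes and in 13.6% of all 32851 windows in the table, TGTGGT in 3 genes and 16.8% of windows, and GGAATG in 11 genes and 14.7% of windows. Of the 14 genes called lower with a window, 2 held TATAAA, 0 TGTGGT and 6 GGAATG. The 35 genes have 47 windows, and a gene was counted if any of its windows matched. This raises the share of genes against the share of windows, so the 2 are not alike. A match is a description of letters only.

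Adhesive and matricellular glycoproteins held the largest falls. Of 13 such genes 7 were lower, Spon1 rose and 5 stayed outside the threshold, with a median log2 fold change of -0.85. Tnn, which encodes tenascin-W, a tenascin of bone-forming surfaces (ENSMUSG00000026725.17, chromosome 1 from 160085029 to 160153580), was at 31.7, 48.5, 38.5, 9.42 and 41.5 CPM in aged mice 1 to 5, against 209, 213, 192, 198 and 165 CPM in young mice 1 to 5. Every aged mouse was below every young mouse, and aged mouse 4 was the lowest. Tnn averaged 33.9 ± 14.96 CPM in aged and 195 ± 18.9 CPM in young femurs (SD, n = 5 each; log2 fold change -2.53 with SE 0.34, edgeR adjusted p = 0.00182). Postn, whose printed window has a TATA box just before the start site, encodes periostin, which binds collagen and integrins and is named after the periosteum (ENSMUSG00000027750.16, chromosome 3 from 54361109 to 54391037). It was at 153, 149.9, 72.2, 47.4 and 134 CPM in aged mice 1 to 5, against 539, 607, 541, 559 and 391 CPM in young mice 1 to 5. The groups were again apart, with aged mice 3 and 4 lowest and young mouse 5 lowest of its group. Postn averaged 111 ± 48.4 CPM in aged and 528 ± 81.1 CPM in young femurs (SD, n = 5 each; log2 fold change -2.24 with SE 0.30, edgeR adjusted p = 0.00186). The counts of Postn made up 1.89% to 4.93% of the counts of the 48 genes in aged libraries and 9.41% to 12.7% in young libraries.

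The thrombospondins did not move as 1 family. Thbs2, whose protein affects collagen fibril assembly and vessel growth (ENSMUSG00000023885.9, chromosome 17 from 14665500 to 14694235), was at 68.2, 81.5, 50.2, 22.1 and 73.3 CPM in aged mice 1 to 5, against 198, 248, 197, 231 and 182 CPM in young mice 1 to 5. All aged mice were lower, and aged mouse 4 stood below the other 4. Thbs2 averaged 59.1 ± 23.6 CPM in aged and 211 ± 27.2 CPM in young femurs (SD, n = 5 each; log2 fold change -1.84 with SE 0.28, edgeR adjusted p = 0.00408). Thbs3, a pentameric thrombospondin of skeletal tissue, averaged 8.17 ± 1.91 CPM in aged and 15.6 ± 1.97 CPM in young femurs without overlap (SD, n = 5 each; log2 fold change -0.93 with SE 0.16, edgeR adjusted p = 0.00488). Thbs1, an activator of latent TGF-beta whose fold change was below 0 with total counts scaling, averaged 350.0 ± 89.6 CPM in aged and 343 ± 36.0 CPM in young femurs (SD, n = 5 each; log2 fold change 0.029 with SE 0.16, edgeR adjusted p = 0.929). Thbs4, a thrombospondin of tendon and muscle, averaged 137 ± 66.3 CPM in aged and 156 ± 38.3 CPM in young femurs (SD, n = 5 each; log2 fold change -0.19 with SE 0.33, edgeR adjusted p = 0.757). Neither Thbs1 nor Thbs4 passed the test, and the age groups overlapped in both.

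Fn1 encodes fibronectin, the scaffold on which collagen and fibrillin are first assembled (ENSMUSG00000026193.15, chromosome 1 from 71585520 to 71653200). It was at 392, 525, 248, 269.6 and 364 CPM in aged mice 1 to 5, against 681, 655, 739, 716 and 447 CPM in young mice 1 to 5. The overlap came from young mouse 5, which was below aged mouse 2. Fn1 averaged 359.8 ± 111 CPM in aged and 647 ± 116 CPM in young femurs (SD, n = 5 each; log2 fold change -0.85 with SE 0.20, edgeR adjusted p = 0.0230). The call of Fn1 ended without aged mouse 3 (edgeR adjusted p = 0.0509) and without young mouse 1, 2 or 4 (edgeR adjusted p = 0.0504, 0.0601 and 0.0621). Edil3, an integrin ligand with discoidin domains, was at 15.5, 12.1, 8.65, 5.41 and 15.2 CPM in aged mice 1 to 5, against 25.4, 37.1, 32.7, 38.4 and 23.7 CPM in young mice 1 to 5. No aged mouse reached the lowest young value, and aged mouse 4 was the lowest. Edil3 averaged 11.4 ± 4.33 CPM in aged and 31.5 ± 6.69 CPM in young femurs (SD, n = 5 each; log2 fold change -1.47 with SE 0.26, edgeR adjusted p = 0.00853). Spon2, the gene of mindin, a further integrin ligand, ranged over 1.62 to 2.73 CPM in aged and 3.17 to 5.96 CPM in young mice without overlap (log2 fold change -1.23 with SE 0.21, edgeR adjusted p = 0.00388). Tnc, the gene of tenascin-C, averaged 555 ± 151 CPM in aged and 831 ± 198 CPM in young femurs (SD, n = 5 each; log2 fold change -0.58 with SE 0.20, edgeR adjusted p = 0.0957). Tnxb, the gene of tenascin-X, which organizes collagen fibrils in loose connective tissue, averaged 113 ± 34.0 CPM in aged and 85.8 ± 26.3 CPM in young femurs (SD, n = 5 each; log2 fold change 0.40 with SE 0.23, edgeR adjusted p = 0.302). Vtn, the gene of the plasma adhesion protein vitronectin, was low at 2.78 CPM in aged and 2.28 CPM in young femurs (log2 fold change 0.29 with SE 0.24, edgeR adjusted p = 0.482).

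Spon1, which encodes the adhesive protein F-spondin of nerve and cartilage, went the other way. It was at 24.2, 29.6, 17.9, 25.5 and 28.8 CPM in aged mice 1 to 5, against 15.6, 17.2, 20.5, 18.4 and 16.3 CPM in young mice 1 to 5. Aged mouse 3 was within the young range, and the other 4 aged mice were above every young mouse. Spon1 averaged 25.2 ± 4.66 CPM in aged and 17.6 ± 1.92 CPM in young femurs (SD, n = 5 each; log2 fold change 0.52 with SE 0.13, edgeR adjusted p = 0.0340). The call of Spon1 ended without aged mouse 2 or 5 and without young mouse 1, 2, 4 or 5 (edgeR adjusted p = 0.0657, 0.0737, 0.0754, 0.0880, 0.0661 and 0.0591) as well as under total counts scaling (edgeR adjusted p = 0.220).

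**Figure D2:**
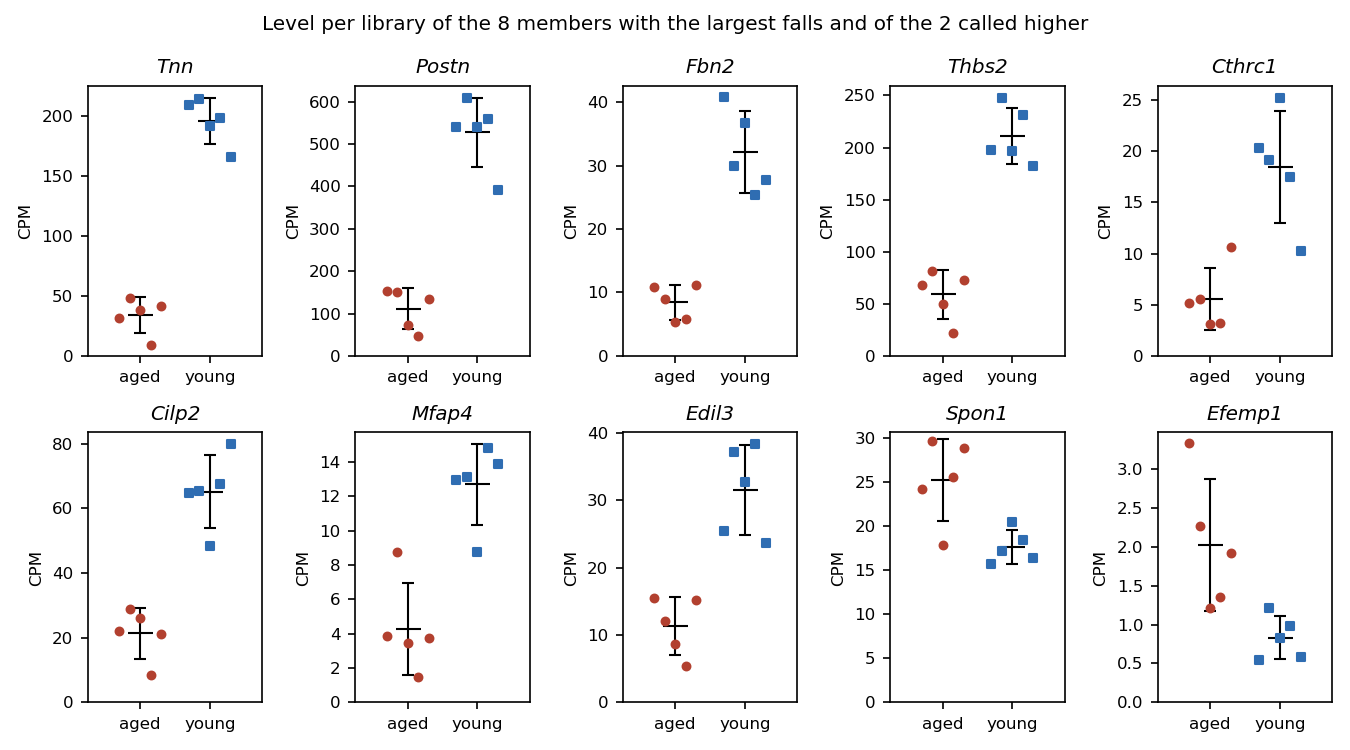
Level in CPM per library, on axes from 0, of the 8 genes with the largest falls and of Spon1 and Efemp1, the 2 genes called higher. Red circles are the 5 aged mice and blue squares the 5 young mice, with horizontal bars for the mean and whiskers for 1 SD. Aged and young mice do not overlap for Tnn, Postn, Fbn2, Thbs2, Cilp2, Edil3 and Efemp1, while they overlap for Cthrc1, Mfap4 and Spon1.

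Among genes of microfibrils and elastic fibres, those called lower were Fbn1, Fbn2, Mfap2 and Mfap4, while Mfap5, elastin and most fibulins did not pass the test. Of 14 genes 4 were lower, Efemp1 rose and 9 stayed outside the threshold, with a median log2 fold change of -0.32. Fbn2 encodes fibrillin-2, the fibrillin mostly made during development (ENSMUSG00000024598.9, chromosome 18 from 58008623 to 58210487). It was at 10.8, 9.03, 5.31, 5.81 and 11.2 CPM in aged mice 1 to 5, against 40.8, 29.9, 36.7, 25.3 and 27.7 CPM in young mice 1 to 5. The highest aged mouse was well under the lowest young mouse. Fbn2 averaged 8.44 ± 2.76 CPM in aged and 32.1 ± 6.47 CPM in young femurs (SD, n = 5 each; log2 fold change -1.92 with SE 0.22, edgeR adjusted p = 4.4e-04). Fbn1, the fibrillin of adult microfibrils, was at 96.0, 79.1, 76.9, 55.1 and 75.4 CPM in aged mice 1 to 5, against 136, 131, 129.8, 106 and 100.1 CPM in young mice 1 to 5. The groups did not overlap, but the gap was narrow. Fbn1 averaged 76.5 ± 14.6 CPM in aged and 121 ± 16.5 CPM in young femurs (SD, n = 5 each; log2 fold change -0.66 with SE 0.14, edgeR adjusted p = 0.0141). In GENCODE vM21, 20.1% of the exon bases of Fbn1 also lie in Gm9913 on the opposite strand, and no source used here says whether reads were counted by strand.

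Mfap2 encodes MAGP-1, which binds fibrillin microfibrils (ENSMUSG00000060572.17, chromosome 4 from 141010418 to 141015984). It was at 2.40, 3.66, 3.15, 2.62 and 3.54 CPM in aged mice 1 to 5, against 7.65, 7.38, 9.22, 8.43 and 6.13 CPM in young mice 1 to 5. All aged mice were lower, and the spread within each group was small. Mfap2 averaged 3.08 ± 0.552 CPM in aged and 7.76 ± 1.16 CPM in young femurs (SD, n = 5 each; log2 fold change -1.33 with SE 0.16, edgeR adjusted p = 4.2e-04). Mfap4, a binding partner of tropoelastin, was at 3.89, 8.73, 3.45, 1.4999 and 3.77 CPM in aged mice 1 to 5, against 12.9, 13.1, 8.73, 14.8 and 13.9 CPM in young mice 1 to 5. Aged mouse 2 and young mouse 3 were level, and all other aged mice were below all young mice. Mfap4 averaged 4.27 ± 2.68 CPM in aged and 12.7 ± 2.34 CPM in young femurs (SD, n = 5 each; log2 fold change -1.56 with SE 0.36, edgeR adjusted p = 0.0250). The call of Mfap4 ended without aged mouse 3 or 5 or young mouse 1, 2 or 4 (edgeR adjusted p = 0.0662, 0.0606, 0.0542, 0.0658 and 0.0621) as well as under total counts scaling (edgeR adjusted p = 0.0567), with no filter on low counts (edgeR adjusted p = 0.0794) and with the muscle markers' mean level in the model (edgeR adjusted p = 0.0732). Mfap5, the gene of MAGP-2, averaged 3.18 ± 1.30 CPM in aged and 3.44 ± 0.777 CPM in young femurs (SD, n = 5 each; log2 fold change -0.12 with SE 0.27, edgeR adjusted p = 0.812).

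Efemp1, the gene of fibulin-3 (ENSMUSG00000020467.15, chromosome 11 from 28853204 to 28926743), was the one member in which every aged mouse was above every young mouse. It was at 3.33, 2.27, 1.21, 1.36 and 1.92 CPM in aged mice 1 to 5, against 0.539, 1.21, 0.832, 0.981 and 0.590 CPM in young mice 1 to 5. Aged mouse 3 was only just above young mouse 2, and aged mouse 1 was the highest. The order of aged mouse 3 and young mouse 2 rests on the TMM factors. Their counts of Efemp1 were 32 and 48, out of 31788232 and 34889562 counts in all. Efemp1 averaged 2.02 ± 0.846 CPM in aged and 0.830 ± 0.278 CPM in young femurs (SD, n = 5 each; log2 fold change 1.28 with SE 0.30, edgeR adjusted p = 0.0230). The call of Efemp1 ended without young mouse 1 (edgeR adjusted p = 0.0518) and under total counts scaling (edgeR adjusted p = 0.0522). The other fibulins stayed outside the threshold. Efemp2, the gene of fibulin-4, which elastic fibre assembly requires, ranged over 11.7 to 21.3 CPM in aged and 17.7 to 23.8 CPM in young mice (log2 fold change -0.48 with SE 0.16, edgeR adjusted p = 0.0766). It passed without aged mouse 5 (edgeR adjusted p = 0.0192) and under total counts scaling (edgeR adjusted p = 0.0471). Fbln5, whose protein fibulin-5 tethers elastic fibres to cells, ranged over 10.4 to 25.1 CPM in aged and 20.7 to 25.0 CPM in young mice (log2 fold change -0.45 with SE 0.18, edgeR adjusted p = 0.128), and it passed without aged mouse 2 (edgeR adjusted p = 0.0275). Fbln1, a fibulin that binds fibronectin, ranged over 9.42 to 20.0 CPM in aged and 16.7 to 36.8 CPM in young mice (log2 fold change -0.68 with SE 0.23, edgeR adjusted p = 0.0874), and it passed without young mouse 1 (edgeR adjusted p = 0.0412) and with DESeq2 (adjusted p = 0.0359). Fbln2 and Fbln7, further fibulins, had log2 fold changes of 0.11 and 0.11 (edgeR adjusted p = 0.787 and 0.813), both below 0 under total counts scaling.

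Eln, the gene of elastin itself, was at 32.9, 26.2, 49.9, 21.0 and 41.4 CPM in aged mice 1 to 5, against 54.2, 30.3, 44.4, 32.9 and 33.0 CPM in young mice 1 to 5. The age groups overlapped over most of their range. Eln averaged 34.3 ± 11.6 CPM in aged and 38.9 ± 10.1 CPM in young femurs (SD, n = 5 each; log2 fold change -0.19 with SE 0.23, edgeR adjusted p = 0.656). The EMILIN genes Emilin1 and Emilin2, whose proteins lie between elastin and microfibrils, overlapped too. Emilin1 ranged over 59.3 to 93.0 CPM in aged and 74.8 to 99.0 CPM in young mice (log2 fold change -0.17 with SE 0.14, edgeR adjusted p = 0.460). Emilin2 ranged over 54.8 to 89.2 CPM in aged and 50.7 to 69.3 CPM in young mice (log2 fold change 0.24 with SE 0.13, edgeR adjusted p = 0.262).

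Of the 4 latent TGF-beta binding protein genes, Ltbp2 was lower and 3 did not pass. Ltbp2 encodes the family member that does not bind latent TGF-beta and attaches to fibrillin. It was at 47.8, 59.2, 52.5, 55.9 and 45.7 CPM in aged mice 1 to 5, against 75.4, 65.7, 69.1, 73.2 and 77.4 CPM in young mice 1 to 5. The groups were apart, with little spread within each. Ltbp2 averaged 52.2 ± 5.59 CPM in aged and 72.1 ± 4.74 CPM in young femurs (SD, n = 5 each; log2 fold change -0.47 with SE 0.10, edgeR adjusted p = 0.0120), a change of less than 1.5-fold. The proteins of Ltbp1, Ltbp3 and Ltbp4 do bind the latent growth factor, and these genes overlapped between the ages. Ltbp1 ranged over 79.3 to 99.8 CPM in aged and 75.2 to 93.0 CPM in young mice (log2 fold change 0.085 with SE 0.10, edgeR adjusted p = 0.622), with a value below 0 under total counts scaling. Ltbp3 ranged over 84.9 to 125 CPM in aged and 106 to 145 CPM in young mice (log2 fold change -0.24 with SE 0.12, edgeR adjusted p = 0.235). Ltbp4 ranged over 86.9 to 176 CPM in aged and 80.9 to 133 CPM in young mice (log2 fold change 0.34 with SE 0.17, edgeR adjusted p = 0.229).

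Genes of collagen-associated and other modular glycoproteins were lower in 9 of 17 cases, and 8 did not pass. By edgeR 0 were higher, with 0 at an unadjusted p under 0.05 and 0 by DESeq2 and limma-voom. Their median log2 fold change was -0.64. Cthrc1, a secreted product of osteoblasts that promotes bone formation in mice, was at 5.20, 5.53, 3.11, 3.23 and 10.7 CPM in aged mice 1 to 5, against 20.3, 19.2, 25.2, 17.5 and 10.2 CPM in young mice 1 to 5. Aged mouse 5 and young mouse 5 were nearly level, with the aged one slightly above, and the other mice of both ages were apart. Cthrc1 averaged 5.55 ± 3.06 CPM in aged and 18.5 ± 5.45 CPM in young femurs (SD, n = 5 each; log2 fold change -1.73 with SE 0.34, edgeR adjusted p = 0.0129). Cilp2, a cartilage intermediate layer protein gene, was at 22.1, 28.9, 26.1, 8.39 and 21.1 CPM in aged mice 1 to 5, against 64.9, 65.4, 48.3, 67.5 and 79.9 CPM in young mice 1 to 5. Every aged mouse was lower, and aged mouse 4 was the lowest. Cilp2 averaged 21.3 ± 7.88 CPM in aged and 65.2 ± 11.3 CPM in young femurs (SD, n = 5 each; log2 fold change -1.61 with SE 0.27, edgeR adjusted p = 0.00629), whereas its paralog Cilp, below 0 under total counts scaling, averaged 60.9 ± 27.2 CPM in aged and 60.5 ± 11.6 CPM in young femurs (SD, n = 5 each; log2 fold change 0.0079 with SE 0.32, edgeR adjusted p = 0.991).

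The matrilin genes Matn2 and Matn4, adaptors that link matrix filaments, averaged 6.30 ± 0.839 CPM in aged and 14.3 ± 2.64 CPM in young femurs for Matn2 and 4.39 ± 1.15 CPM in aged and 9.54 ± 1.82 CPM in young femurs for Matn4 (SD, n = 5 each). They fell by 1.18 and 1.12 on the log2 scale without overlap (edgeR adjusted p = 5.6e-04 and 0.00486). Aebp1 encodes ACLP, which binds fibrillar collagen. It was at 58.0, 75.8, 80.8, 42.8 and 65.7 CPM in aged mice 1 to 5, against 105, 112, 129, 115 and 118 CPM in young mice 1 to 5. Aged mouse 4 was again lowest, and no aged mouse reached the young range (log2 fold change -0.84 with SE 0.15, edgeR adjusted p = 0.00476). The olfactomedin-domain genes Olfml2b and Olfml3 were lower without overlap. Olfml2b ranged over 22.3 to 48.1 CPM in aged and 54.9 to 88.0 CPM in young mice (log2 fold change -1.06 with SE 0.19, edgeR adjusted p = 0.00578). Olfml3 ranged over 28.6 to 60.5 CPM in aged and 66.6 to 96.9 CPM in young mice (log2 fold change -0.96 with SE 0.20, edgeR adjusted p = 0.0146).

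Igsf10, a large immunoglobulin-domain protein first described in calvarial bone, averaged 16.5 ± 7.11 CPM in aged and 40.4 ± 5.79 CPM in young femurs without overlap (SD, n = 5 each; log2 fold change -1.29 with SE 0.27, edgeR adjusted p = 0.0188). For Igsf10, 19.2% of the exon bases also lie in Med12l on the opposite strand. Its call ended without young mouse 2 (edgeR adjusted p = 0.0546) and with no filter on low counts (edgeR adjusted p = 0.0600). Hmcn1, the gene of hemicentin, ranged over 12.8 to 21.6 CPM in aged and 20.8 to 29.6 CPM in young mice with an overlap (log2 fold change -0.64 with SE 0.15, edgeR adjusted p = 0.0218), and its call ended without young mouse 2 (edgeR adjusted p = 0.0667).

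Ecm1, a glycoprotein gene of skin and cartilage matrix, was just outside the threshold (log2 fold change -0.49 with SE 0.14, edgeR adjusted p = 0.0510), and it passed with DESeq2 (adjusted p = 0.0309), with total counts scaling, with no filter and with a filter of 1 CPM in 5 libraries, and without aged mouse 4 or young mouse 5. Dpt encodes dermatopontin, which binds decorin and collagen, and ranged over 2.39 to 6.93 CPM in aged and 4.85 to 8.09 CPM in young mice (log2 fold change -0.40 with SE 0.24, edgeR adjusted p = 0.319). Vwa1, a pericellular protein that binds perlecan, ranged over 6.12 to 13.8 CPM in aged and 6.89 to 12.4 CPM in young mice (log2 fold change -0.11 with SE 0.21, edgeR adjusted p = 0.779). Abi3bp, Crispld2, Svep1 and Sned1 had log2 fold changes of -0.46, -0.32, -0.10 and -0.038 and did not pass either (edgeR adjusted p = 0.276, 0.257, 0.650 and 0.901).

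In 6 pairs of paralogs the balance between the 2 genes differed with age, whereas Matn2 and Matn4, and Olfml2b and Olfml3, fell by similar amounts. For the 6 pairs the log2 ratio of counts per kilobase was taken within each library, which does not depend on the scaling of libraries. The pairs were chosen with the results of single genes known, and 5 of them set a called gene against one that did not pass, so the ratios restate those calls and are given as a description with no test. The ratio of Fbn2 to Fbn1 was -3.27, -3.25, -3.98, -3.37 and -2.87 in aged mice 1 to 5, against -1.87, -2.26, -1.94, -2.19 and -1.98 in young mice 1 to 5. Every aged value was below every young value, a difference of -1.30. Put in linear terms, the mean log2 ratio set Fbn2 at 0.0981 of Fbn1 in aged and 0.242 in young femurs. The ratio of Tnn to Tnc was -3.58, -3.16, -2.76, -5.50 and -3.80 in aged mice 1 to 5, against -1.69, -1.40, -2.13, -1.59 and -1.42 in young mice 1 to 5. It did not overlap either and differed by -2.12, with aged mouse 4 far below the rest. In aged femurs the ratios of Thbs2 to Thbs1 and of Cilp2 to Cilp differed by -1.96 and -1.57 on the log2 scale from those in young femurs, and that of Efemp1 to Efemp2 by 1.76, each without overlap between the ages. Put in linear terms, the mean log2 ratio (a geometric mean) was 0.137 in aged and 0.533 in young femurs for Thbs2 to Thbs1. For Cilp2 to Cilp it was 0.359 and 1.06, and for Efemp1 to Efemp2 0.235 and 0.0694. The ratio of Mfap2 to Mfap5 overlapped, with 0.50 to 2.42 in aged and 2.01 to 3.43 in young mice, a difference of -1.15.

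**Figure D3:**
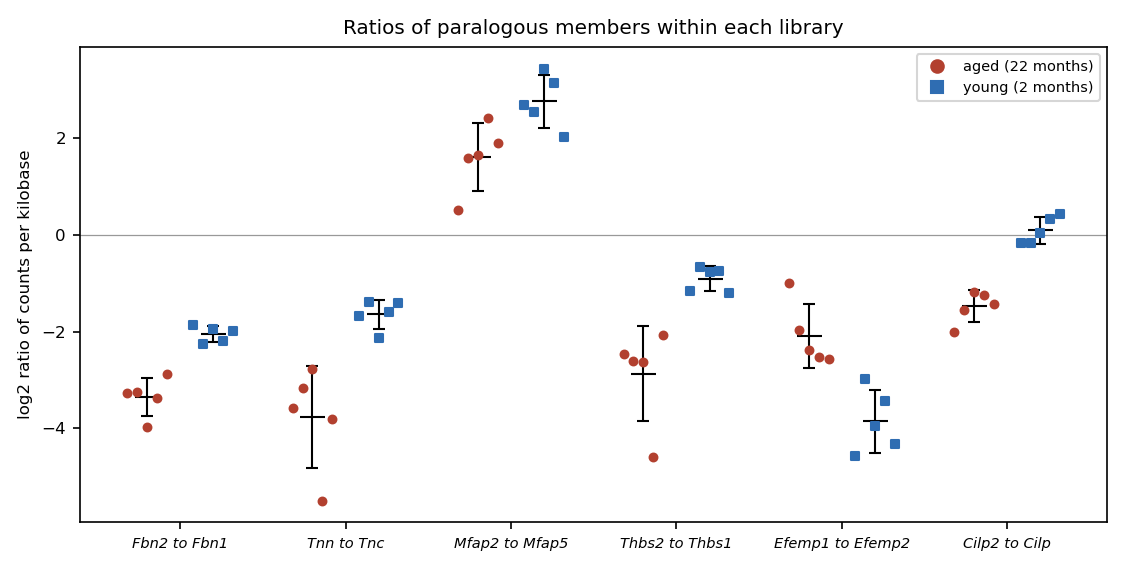
Log2 ratio of counts per kilobase of 6 pairs of paralogous genes in each library, with red circles for aged and blue squares for young mice, a bar for the mean and whiskers for 1 SD. Aged and young mice are apart in 5 pairs and overlap for Mfap2 to Mfap5, and Efemp1 to Efemp2 is the one pair in which aged mice are higher.

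Per length, Tnc had the highest mean level of the 48 genes at both ages, with 71.4 ± 19.4 CPM per kilobase in aged and 107 ± 25.4 CPM per kilobase in young femurs (SD, n = 5 each). In young femurs Postn (60.6 ± 9.31), Thbs1 (56.5 ± 5.93), Fn1 (55.4 ± 9.96) and Thbs4 (47.4 ± 11.7) followed in CPM per kilobase, with neighbours that lay within 1 SD of each other except Tnc and Postn. In aged femurs the order after Tnc was Thbs1, Thbs4, Fn1 and Ltbp4, with mean levels of 57.6, 41.6, 30.8 and 21.0 CPM per kilobase. Postn was rank 9 of 48 in aged and rank 2 in young femurs, and Tnn was rank 22 in aged and rank 6 in young femurs. Efemp1 was the lowest of the 48 in young femurs with 0.407 CPM per kilobase, and Fbn2 the lowest in aged femurs with 0.639 CPM per kilobase.

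**Figure D4:**
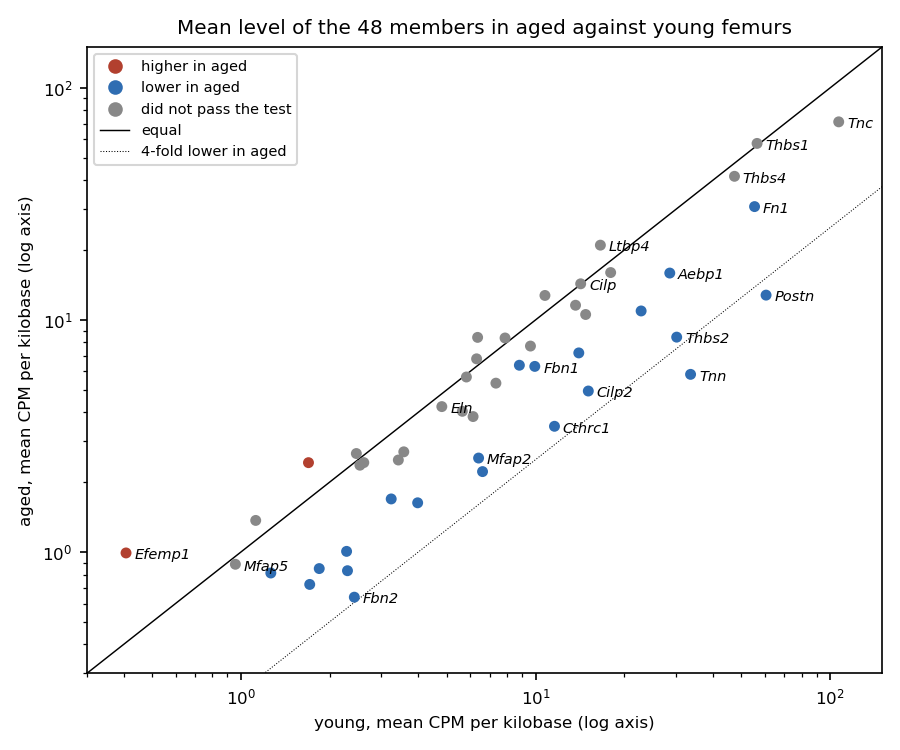
Mean CPM per kilobase of the 48 genes, with aged femurs on the vertical and young femurs on the horizontal axis, both on log scales. The solid line marks equal levels and the dotted line a 4-fold lower level in aged femurs, near or beyond which Tnn, Postn, Fbn2 and Thbs2 lie.

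Other genes of the same matrix, which are no members of the group, were read in 4 lists from the same test. The lists were chosen with earlier results known, and of all genes tested 3.61% were lower and 3.68% higher. Of 26 other matricellular and modular glycoproteins, 24 were tested and 9 were lower, with a median log2 fold change of -0.52. By edgeR 0 were higher, with 1 at an unadjusted p under 0.05 and 0 by DESeq2 and limma-voom. Sparc, the gene of osteonectin, averaged 1229 ± 648 CPM in aged and 3567 ± 752 CPM in young femurs (log2 fold change of -1.54, edgeR adjusted p = 0.0121). Ccn5, Ccn3 and Egfl6, of which the first pair belong to the CCN family of matricellular proteins, had log2 fold changes of -1.51, -1.93 and -1.66 (edgeR adjusted p = 5.6e-04, 0.0205 and 0.0138). The count of 9 was 3 without aged mouse 3, 5 without young mouse 2 and 6 without young mouse 3 or 4. Of 20 genes that crosslink or process elastic fibres and collagen, 19 were tested, with 6 lower, 1 higher and a median log2 fold change of -0.12. The crosslinking enzyme genes Loxl2 and Loxl1 had log2 fold changes of -2.38 and -0.77 (edgeR adjusted p = 1.4e-04 and 0.00296). Adamts17, a protease gene, had -1.27 and Pcolce, an enhancer of procollagen cleavage, -0.91 (edgeR adjusted p = 0.00244 and 0.00674). The higher gene, named after its value was seen, was Adamtsl5 with 0.99 (edgeR adjusted p = 0.0423), and this count was 0 without aged mouse 1, 3 or 5 or young mouse 1, 2, 3 or 4.

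Of 28 integrins and other matrix receptors, 4 fell and 1 rose, with a median log2 fold change of -0.13. The higher share is close to the 3.68% of all genes, against 3.61% for lower genes. Itga11, the integrin chain that binds fibrillar collagen on fibroblasts, fell by 0.81 on the log2 scale, and the syndecan genes Sdc1 and Sdc2, heparan sulfate receptors for fibronectin and growth factors, by 0.76 and 0.87 (edgeR adjusted p = 0.00578, 0.0118 and 0.0183). Itgb7, a leukocyte integrin chain, was the higher one with 0.57 (edgeR adjusted p = 0.0235). The count of higher receptors was 4 with DESeq2, 0 without young mouse 2 or 4, 2 without aged mouse 4 or 5 and 3 without young mouse 5. For 15 genes of TGF-beta ligands, receptors and activation the median log2 fold change was 0.059. By edgeR 0 were higher, with 2 at an unadjusted p under 0.05 and 0 by DESeq2 and limma-voom.

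Markers of cell types that make these glycoproteins moved in part with them. These lists too were chosen with earlier results known, and of all genes tested 3.61% were lower and 3.68% higher. Of 12 chondrocyte markers, 10 were tested and 6 were lower, with summed levels of 686 to 1561 CPM in aged and 958 to 2651 CPM in young mice. Of 9 osteoblast markers, 3 were lower by edgeR and 5 by DESeq2 and by limma-voom, and their summed levels overlapped only where aged mouse 5 was above young mouse 5. Of 6 tendon and ligament markers 1 was lower, with 80.2 to 285 CPM in aged and 253 to 332 CPM in young mice, the lowest being aged mouse 4. Of 7 fibroblast markers 2 were lower and 1 higher, with 163 to 214 CPM in aged and 227 to 282 CPM in young mice. Of 6 osteocyte markers 0 were lower and 1 higher by edgeR, and 1 lower and 1 higher by DESeq2 and by limma-voom. Their summed levels were 163 to 594 CPM in aged and 354 to 452 CPM in young mice. Of 7 smooth muscle and pericyte markers 0 passed by edgeR, with 1 lower and 1 higher at an unadjusted p under 0.05, and 1 was lower by DESeq2. Of 13 skeletal muscle markers, 12 were tested and 0 passed by edgeR (0 lower and 2 higher at an unadjusted p under 0.05, and 0 by DESeq2 and limma-voom). No marker of these lists was at 0 in any library. The part of these cell types in the falls of the 48 genes was not tested. With the mean muscle marker level in the model (a muscle covariate), 20 of the 21 lower and both higher genes were still called. Without aged mouse 4 all 21 and without young mouse 2 17 of the 21 lower genes were still called, and the lower calls among all genes were 386 without young mouse 2, 448 without young mouse 4 and 479 without aged mouse 3, against 798. Without young mouse 1 neither higher gene was called.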

How the data were processed

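Counts of reads per gene were deposited in 1 table, made by the authors with Cutadapt 2.10 for trimming, STAR 2.7.8a for alignment to GRCm38.p6 and featureCounts 2.0.2 for counting. The labels name a human genome build, whereas the identifiers and coordinates are of mouse. Ribosomal RNA was depleted and poly-A RNA enriched. The sources used here do not give the strand setting, the annotation release or the handling of multi-mapping reads. Each of the 10 count columns matched 1 mouse by its label, and gene length is the table's own.

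Low counts were filtered by edgeR (at least 10 counts in enough libraries, at least 15 in all), libraries scaled by TMM, and genes tested with edgeR 4.0.16 in R 4.3.3 (robust quasi-likelihood fit and test, Benjamini-Hochberg over 22088 genes). SE was taken as the absolute log2 fold change over the square root of F. The median standard error was 0.203 for the 48 genes and 0.178 for all genes. The fit was tested on simulated data with known changes. There it called 24 of 67 genes changed 1.5-fold, 57 of 67 changed 2-fold and 65 of 66 changed 4-fold, and 6 of its 152 calls were false. Most changes of 1.5-fold were thus missed in the simulation. Only those 67, 67 and 66 genes out of 21836 were changed in it, all with a mean above 1 CPM. In the data 1610 genes were called, so these rates may not hold there. Exact permutation tests were planned for the ratios, but the pairs were chosen with results known, and their p-values are not reported. Alternatives were DESeq2 1.42.0, limma-voom (limma 3.58.1), other scalings, filters and thresholds, a muscle covariate, a block for the mouse number, and each library left out in turn. The members and lists were chosen with earlier results of these data known. The text may name all 48 genes, with full values for the 8 largest falls and the higher genes, and up to 4 called genes with the smallest p of each other list, and genes outside this rule are marked. Some other members are also given in full. The lower calls of the TGF-beta list are not reported here by gene. Exon overlaps are from GENCODE vM21, where 19 of the 48 genes share exon bases with a gene on the opposite strand, 5 of them over 10%. Promoters are from RefSeq. Figures were drawn with Python 3.11.15 and matplotlib 3.10.9.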

Additional observations from a re-analysis of the deposited data

Results flagged for a closer look

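Of 110 groups of 5 values (each gene, ratio and the summed share, in each age group), 3 held 1 mouse far from the other 4, where chance gives about 1 in 20. Fn1 was at 447 CPM in young mouse 5, against 655 to 739 CPM in the other young mice. Vtn was at 1.25 CPM in young mouse 4, against 2.39 to 2.66 CPM in the other young mice. The log2 ratio of Thbs2 to Thbs1 was -4.58 in aged mouse 4, against -2.63 to -2.07 in the other aged mice. Without that mouse the mean difference between aged and young mice was -1.53.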

How the results depend on the processing

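Of the 23 calls among the 48 genes, 16 were kept under every alternative run and 17 in all 10 fits that left out 1 library. The calls that ended were those of Fn1, Spon1, Mfap4, Efemp1, Igsf10 and Hmcn1, and, where at least 1.5-fold was also asked, Spon1 and Ltbp2. The count of lower genes was 17 to 22 in all fits without 1 library and 20 to 23 in all others, against 21. The count of higher genes was 0 with total counts scaling, 1 with the 1.5-fold threshold, 1 with the replicate block and 0 to 2 without 1 library, against 2. Total counts scaling moved the median of all genes to -0.16 on the log2 scale, against 0.0077 with TMM, and gave 917 lower and 285 higher genes, against 798 and 812. DESeq2 called 1250 genes lower and 1546 higher. In the other lists, DESeq2 called 4 receptors higher and 2 TGF-beta genes lower. Without 1 library, 3 to 9 other glycoproteins were lower, 0 to 1 crosslinking genes and 0 to 3 receptors were higher, and 0 to 2 TGF-beta genes were lower and 0 to 1 higher.

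Some genes that did not pass changed sign. With total counts scaling the log2 fold changes were -0.12 for Thbs1, -0.064 for Fbln2, -0.027 for Fbln7, -0.079 for Ltbp1 and -0.16 for Cilp. With limma-voom they were -0.0046 for Thbs1 and -0.14 for Cilp, with the muscle covariate -0.000562 for Vtn, -0.13 for Fbln2, -0.061 for Fbln7 and -0.11 for Cilp, and with the replicate block -0.0023 for Thbs1 and -0.12 for Cilp. Without 1 library they were -0.16 to 0.24 for Cilp, -0.088 to 0.11 for Thbs1, -0.090 to 0.31 for Fbln7, -0.12 to 0.076 for Sned1, -0.46 to 0.030 for Thbs4, -0.34 to 0.070 for Mfap5 and -0.32 to 0.0072 for Vwa1.

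The labels number the mice 1 to 5 in both groups, but same-numbered mice deviated together with correlations of -0.18 to 0.29 over the 5000 most variable genes, and no mouse matched its own number best in both directions, so the numbers are not taken to pair the mice. With the replicate block 21 genes were lower and 1 higher, as Spon1 was not called. With the numbers as pairs the mean differences of the ratios are the same by construction (-1.30 for Fbn2 to Fbn1, -2.12 for Tnn to Tnc, -1.15 for Mfap2 to Mfap5, -1.96 for Thbs2 to Thbs1, 1.76 for Efemp1 to Efemp2 and -1.57 for Cilp2 to Cilp), and 5 pairs cannot give an exact sign-flip p under 0.0625, so this block says nothing about their stability. The cause of these changes was not tested. With 5 mice a group, small changes of genes that did not pass may be missed.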
